A study of Danio rerio with 20 samples.

Results

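Skin of 3-year-old male zebrafish (Danio rerio) was compared after exercise in a swim tunnel, where fish hold their place in flowing water, and without it. The comparison takes 10 of the 20 libraries of the study, chosen by the labels of age and perturbation: 5 libraries of swim-tunnel fish and 5 of fish labelled with no perturbation, called unexercised here. All 10 are of strain AB JxTu, aged 3 years, total RNA of skin, so both groups share sex, strain, age and tissue. The other 10 libraries, the same 2 groups at 1 year, enter the estimate of the spread and the last comparison. The sources used here do not give how long and how fast the fish swam, at what hour and under what light they were sampled, or whether each library is 1 fish. Where single values are described below, fish stands for library.

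Zebrafish skin is an epidermis of keratinocytes joined by desmosomes and anchored by hemidesmosomes to a basement membrane, over a dermis of collagen that holds bony scales with their own osteoblasts and osteoclasts, pigment cells, vessels and nerves. Its cells carry a circadian clock, a loop in which the activators Clock and Bmal drive their own repressors, Per, Cry, Ciart and Nr1d. In zebrafish this clock sits in peripheral tissues and is set directly by light. Exercise draws on muscle glycolysis and mitochondria, and low oxygen stabilises the Hif factors, which drive glucose uptake, glycolysis and vessel growth.

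The libraries held 29280697 to 42117170 counts in swim-tunnel fish and 36616292 to 50756160 in unexercised fish. Levels are CPM, each gene's share of its library's counts on libraries scaled by the TMM method. Changes are log2 fold changes of swim-tunnel over unexercised fish with their standard error (SE), adjusted p-values come from the quasi-likelihood test of edgeR, adjusted by Benjamini and Hochberg's method across 20788 genes, and a gene was called at an adjusted p below 0.05. Keratinocyte markers were high in every library: krt5 ran from 31900.1 to 48205 CPM in swim-tunnel fish and from 36391 to 46679 CPM in unexercised fish, and cdh1, which joins epithelial cells, from 417 to 760 CPM in swim-tunnel fish and from 455 to 620.1 CPM in unexercised fish. The keratin cyt1 stayed under 3 CPM in all 10, and the melanophore gene dct was too low to test. Genes of other tissues were present: the summed level of 35 fast skeletal muscle genes was 27059.5, 6526, 18253, 3594 and 19428 CPM in swim-tunnel fish, against 3590.4, 9021, 3826, 9328 and 8894 CPM in unexercised fish. On the second principal component (16% of the variance) unexercised replicate 1 lay at 68.0, outside the range of the other 9 libraries (-39.7 to 30.2). In bulk skin, fewer cells of a type and less RNA per cell cannot be told apart. Unexercised 1-year replicate 1 is labelled as skin, but the header of its count column reads muscle. Its summed level of fast muscle genes, 9837 CPM, lay inside the range of the other 4 unexercised 1-year libraries (5231 to 13564 CPM), and its basal keratinocyte sum was 51197 CPM, against 55974 to 64463 CPM in those 4. Without it 195 genes passed an adjusted p below 0.05 at 3 years, 192 of them among the 275 that passed with it (edgeR's quasi-likelihood test).

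In all, 275 of 20788 genes were called (1.32%), 167 higher (0.803%) and 108 lower (0.52%) in swim-tunnel fish, 150 of them by more than 2-fold. The called higher genes had a median log2 fold change of 1.16 and the called lower genes of -0.97, while the median of all genes was 0.01. At an unadjusted p below 0.05 there were 4028 genes (19.4%), and in 898 (4.32%) the 5 swim-tunnel and 5 unexercised values did not overlap, with 381 higher (1.83%) and 517 lower (2.49%) in swim-tunnel fish and 199 of the 898 called. The calls were sensitive to single libraries. Without unexercised replicates 1, 2, 3, 4 and 5 the count was 42, 78, 57, 110 and 68, and without swim-tunnel replicate 5 it was 90. With the 10 libraries of 3-year fish alone it was 50 (0.249% of 20111 genes), 43 of them among the 275. Genes called in each of the 10 fits that leave out 1 library of a 3-year fish numbered 30, with 12 higher and 18 lower. The share of calls that were higher, 60.7%, was 36.8% to 53.6% in the 5 fits without an unexercised 3-year library and 42% with the 3-year libraries alone.

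**Figure D1:**
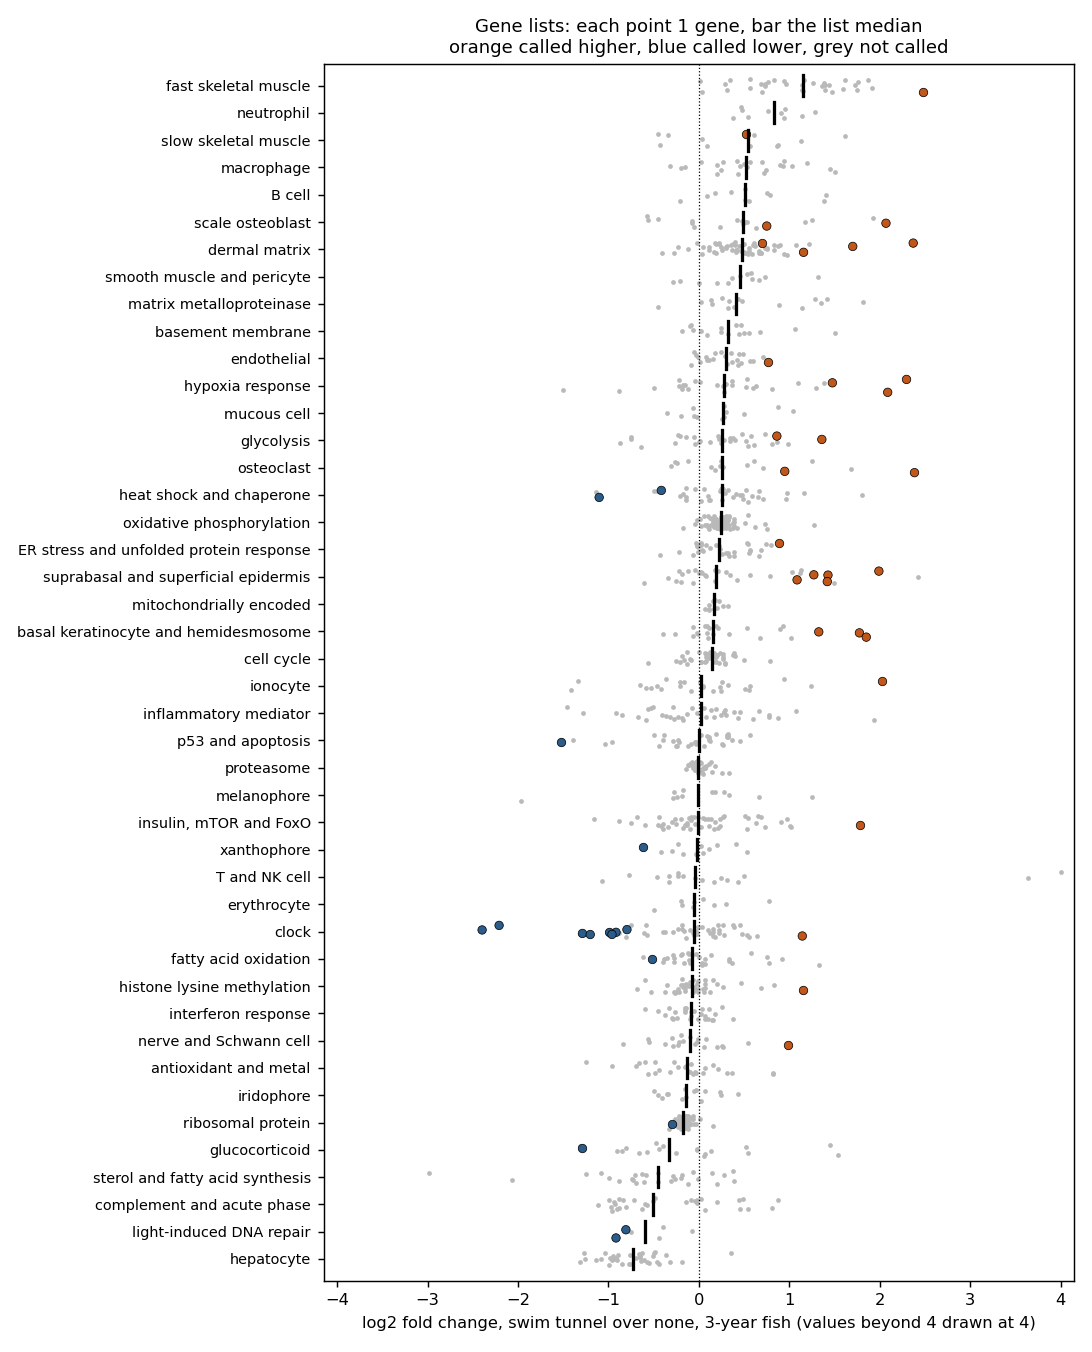
Log2 fold changes of swim-tunnel over unexercised 3-year fish (horizontal axis) for the genes of 44 lists (rows), with the median as a black bar, genes called higher in orange, called lower in blue and not called in grey, values beyond 4 being drawn at 4. Fast skeletal muscle has the highest median, 1.15, and hepatocyte genes the lowest, -0.73. The clock list has the most called genes by number, 9 of 50. Light-induced DNA repair, which shares cry-dash with it, has 2 of 6, where 1.32% of all genes were called.

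Several repressors and output factors of the circadian clock fell in swim-tunnel fish, while the clock's activators did not pass the test. Of 50 clock genes tested 8 fell and 1 rose, where 0.52% of all genes fell and 0.803% rose, and 41 did not pass. The median of the list was -0.06, with 20 of the 50 above 0. NR1D1, a nuclear receptor that represses Bmal transcription, had 4.49, 3.11, 2.13, 2.14 and 2.12 CPM in swim-tunnel fish, against 6.77, 14.7, 22.7, 18.5 and 10.8 CPM in unexercised fish (log2 fold change -2.40, SE 0.38, adjusted p = 0.0118). The highest swim-tunnel value lay below the lowest unexercised one, that of replicate 1. Its relative NR1D2 had 77.0, 89.1, 52.8, 56.3 and 43.2 CPM in swim-tunnel fish, against 124, 139.9, 114, 139.7 and 114 CPM in unexercised fish (log2 fold change -0.99, SE 0.19, adjusted p = 0.0238), again without overlap. The other 9 genes of the Nr1d and Ror receptors were not called, the lowest adjusted p among them being that of rorca (log2 fold change -0.57, SE 0.23, adjusted p = 0.182).

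Among the other repressors of the loop, ciarta, which binds and inhibits Bmal with Clock, had 13.4, 17.4, 17.4, 6.84 and 11.4 CPM in swim-tunnel fish, against 37.2, 52.4, 102, 73.5 and 42.2 CPM in unexercised fish (log2 fold change -2.21, SE 0.34, adjusted p = 0.0118). PER1 (ENSDARG00000012499), a Period protein, had 17.4, 18.2, 14.6, 19.5 and 10.6 CPM in swim-tunnel fish, against 33.1, 44.3, 31.8, 48.0 and 39.4 CPM in unexercised fish (log2 fold change -1.29, SE 0.17, adjusted p = 0.00399). The groups did not overlap in either gene, and unexercised replicate 3 was highest for ciarta. A further PER1 gene (ENSDARG00000056885) and PER3 were not called (log2 fold changes -0.40 (SE 0.52) and -0.80 (SE 0.24), adjusted p = 0.721 and 0.0903). Of 10 output factors of the PAR bZIP family, which carry the rhythm to target genes, 3 fell, where 0.52% of all genes fell. The family as a whole did not shift, with 5 of the 10 above 0 and a median of -0.02. tefa had 122, 115, 145, 151 and 178 CPM in swim-tunnel fish, against 271, 259, 247, 234 and 223 CPM in unexercised fish (log2 fold change -0.80, SE 0.15, adjusted p = 0.0237). dbpa fell by 1.2 (SE 0.24, adjusted p = 0.0249) and dbpb by 0.96 (SE 0.21, adjusted p = 0.0326), both at low levels of 1.3 to 6.79 CPM in swim-tunnel and 2.45 to 15.5 CPM in unexercised fish.

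The activators did not pass: of 6 tested, none was called. The CLOCK genes had log2 fold changes of -0.23 (ENSDARG00000011703) and -0.10 (ENSDARG00000003631), and the BMAL1 genes of -0.29 (ENSDARG00000035732) and -0.02 (ENSDARG00000006791). Of the 6, 2 had a log2 fold change above 0, and 1 had an unadjusted p below 0.05 by edgeR. Cryptochromes moved both ways. cry3b, a repressor cryptochrome in zebrafish, had 134, 151, 146, 108 and 195 CPM in swim-tunnel fish, against 57.8, 63.7, 65.2, 57.7 and 88.0 CPM in unexercised fish (log2 fold change 1.14, SE 0.21, adjusted p = 0.0168). It rose, with the 5 swim-tunnel values all above the highest unexercised one. PER2, which light induces in zebrafish, had 89.0, 132, 85.1, 88.2 and 97.3 CPM in swim-tunnel fish, against 48.3, 64.5, 80.4, 64.8 and 76.3 CPM in unexercised fish without overlap, and its log2 fold change of 0.56 (SE 0.22) did not pass (adjusted p = 0.173).

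A photolyase and a damage recognition gene, both of light-induced DNA repair, fell. In zebrafish, light drives photolyases and DNA repair factors through clock-related promoter elements. cry-dash, a photolyase of the cryptochrome family that is also on the clock list, had 14.8, 12.5, 11.4, 10.7 and 14.6 CPM in swim-tunnel fish, against 21.4, 28.1, 25.1, 23.3 and 22.8 CPM in unexercised fish (log2 fold change -0.92, SE 0.16, adjusted p = 0.0161). DDB2, which recognises ultraviolet damage for excision repair, had 26.8, 22.4, 22.7, 22.5 and 20.7 CPM in swim-tunnel fish, against 38.8, 42.0, 41.6, 39.6 and 39.8 CPM in unexercised fish (log2 fold change -0.81, SE 0.13, adjusted p = 0.0118). In both genes every swim-tunnel value lay below every unexercised one. All 6 genes of the list lay below 0, 2 of them called, at a median of -0.59, and the 6-4 photolyase gene cry5 was not called (log2 fold change -0.75, SE 0.22, adjusted p = 0.0787). Of the 10 called clock and repair genes, NR1D1, ciarta, PER1, cry-dash and DDB2 stayed called in all 10 fits without a 3-year library, and the other 5 lost the call in 1 to 5 of them (highest adjusted p = 0.0678, dbpb without unexercised replicate 2). With the mean log2 CPM of the fast muscle list as a covariate, called the muscle covariate below, PER1, cry-dash and DDB2 stayed called, and NR1D1 and ciarta had adjusted p = 0.0526 and 0.0569 at log2 fold changes of -2.27 and -2.01.

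**Figure D2:**
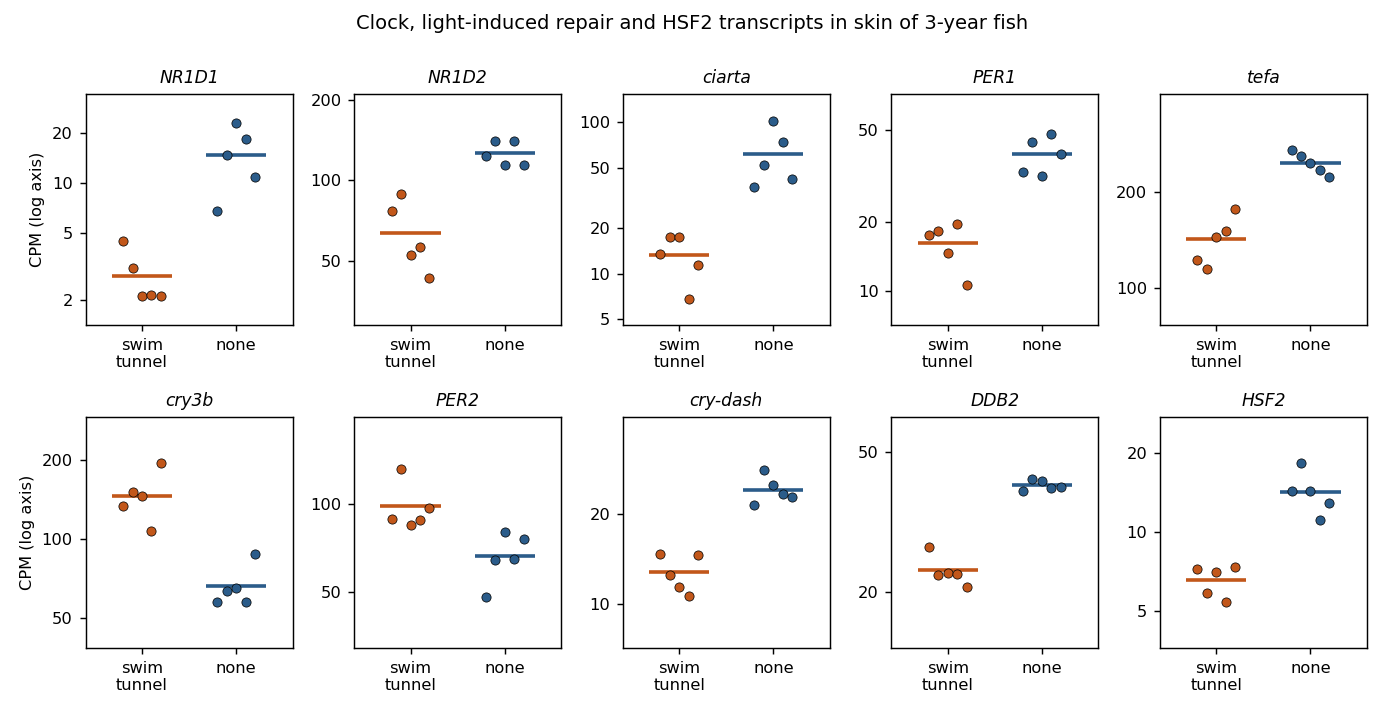
CPM (log axis, its own range per panel) of 8 clock genes, among them cry-dash, of the repair gene DDB2 and of the heat shock factor HSF2 in each of 5 swim-tunnel (left) and 5 unexercised (right) libraries of 3-year fish, with group means as bars. No panel has overlapping groups, and cry3b and PER2 are the panels with higher values in swim-tunnel fish.

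HSF2, a heat shock transcription factor, fell in all 5 swim-tunnel libraries: it had 7.26, 5.86, 7.04, 5.42 and 7.33 CPM in swim-tunnel fish, against 14.3, 18.2, 14.3, 11.1 and 12.8 CPM in unexercised fish (log2 fold change -1.1, SE 0.15, adjusted p = 0.00399). The highest swim-tunnel fish was at 7.33 CPM and the lowest unexercised fish at 11.1 CPM. Of 38 heat shock and chaperone genes HSF2 and DNAJA2 (ENSDARG00000010745), a co-chaperone of Hsp70, fell, the second by 0.42 (SE 0.10, adjusted p = 0.0399), and the list's median was 0.25 with 27 genes above 0. Over all genes 0.803% were called higher and 0.52% lower. AHSA1 (ENSDARG00000100317), which stimulates Hsp90, had 27.7, 40.6, 22.9, 31.2 and 25.4 CPM in swim-tunnel fish, against 12.8, 21.4, 19, 22.1 and 18.8 CPM in unexercised fish, without overlap, and did not pass (log2 fold change 0.65, adjusted p = 0.0774). Of 35 genes of the endoplasmic reticulum stress response 1 rose: MANF, a secreted factor induced by unfolded protein, had 29.2, 45.9, 41.3, 77.9 and 32.6 CPM in swim-tunnel fish, against 21.6, 25, 25.4, 28.7 and 22.2 CPM in unexercised fish (log2 fold change 0.89, SE 0.21, adjusted p = 0.0481). Swim-tunnel replicate 4 was highest, and all 5 lay above the unexercised fish. XBP1, a transcription factor of that response, was not called (log2 fold change 0.55, SE 0.17, adjusted p = 0.0903). HSF2 stayed called in all 10 fits without a 3-year library and with the muscle covariate. MANF and DNAJA2 stayed called in 1 of the 10 each, with adjusted p up to 0.0977 and 0.089, both without unexercised replicate 5.

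Several genes that fasten keratinocytes to the basement membrane and to each other rose in swim-tunnel fish. In the basal keratinocyte and hemidesmosome list 3 of 23 genes rose and none fell, where 0.803% of all genes rose and 0.52% fell. The median was 0.15, and 0.08 without swim-tunnel replicate 5. lamb3, a laminin chain of the basement membrane under keratinocytes, had 638, 865, 204, 271 and 755 CPM in swim-tunnel fish, against 122, 175, 208, 126 and 168 CPM in unexercised fish (log2 fold change 1.77, SE 0.39, adjusted p = 0.0352). Swim-tunnel replicate 3 lay just inside the unexercised range. itga6b, the hemidesmosome integrin alpha subunit, had 1612, 2019.7, 1752, 1275 and 4487 CPM in swim-tunnel fish, against 1045, 989, 829, 783 and 806 CPM in unexercised fish (log2 fold change 1.32, SE 0.32, adjusted p = 0.0475). Every swim-tunnel fish was above every unexercised fish, and replicate 5 stood far above the other 4. Its beta partner ITGB4 and the hemidesmosome collagen col17a1b had log2 fold changes of 1.02 (SE 0.32) and 0.89 (SE 0.28) and did not pass (adjusted p = 0.0974 in both). TP63, the basal keratinocyte transcription factor, had 464, 493, 319, 354 and 680.2 CPM in swim-tunnel fish, against 365, 347, 308, 282 and 303 CPM in unexercised fish (log2 fold change 0.53, adjusted p = 0.137), with replicates 3 and 4 of the swim-tunnel fish inside the unexercised range. The 8 basal keratins and adhesion genes had a median of 0.09 with none called.

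Desmosomes, the junctions that hold keratinocytes to each other, showed the same direction: in the suprabasal and superficial epidermis list 5 of 32 genes rose and none fell, where 0.803% of all genes rose, at a median of 0.19. Both desmosomal cadherins tested were called. dsc2l, a desmocollin, had 1309, 2016, 399.9, 791 and 1158 CPM in swim-tunnel fish, against 163, 385, 303, 319 and 260.1 CPM in unexercised fish (log2 fold change 1.99, SE 0.40, adjusted p = 0.0271), and dsg2.1, a desmoglein, had 2444, 3889, 1254, 2055 and 2378 CPM in swim-tunnel fish, against 661, 1224, 1134, 1148 and 819 CPM in unexercised fish (log2 fold change 1.27, SE 0.29, adjusted p = 0.0384). DSP (ENSDARG00000022309), desmoplakin, which links the desmosome to keratin, had 1624, 2193, 1895, 2332 and 3904 CPM in swim-tunnel fish, against 701, 915, 1040.5, 1014 and 778 CPM in unexercised fish (log2 fold change 1.43, SE 0.29, adjusted p = 0.0276). None of the 3 overlapped between groups, and for dsc2l and dsg2.1 the lowest swim-tunnel fish, replicate 3, was close to the highest unexercised fish. The plaque protein pkp3a rose by 1.08 (SE 0.23, adjusted p = 0.0326) and the transglutaminase tgm1l1, of the enzyme family that crosslinks the surface layers, by 1.42 (SE 0.30, adjusted p = 0.0326). Outside the lists the keratin-binding protein eppk1 rose by 1.8 (SE 0.39), and PERP, a desmosomal membrane protein, ANXA2, an annexin, and TRPV4, a cation channel, rose by 1.05 (SE 0.25), 0.85 (SE 0.18) and 1.14 (SE 0.26), the last 3 chosen after their values were seen. Other genes outside the lists, lad1 and PADI1, also chosen after their values were seen, went the other way. In raw counts lad1 had 393 to 939 in swim-tunnel and 1110 to 2047 in unexercised libraries. The counts of PADI1 were 1830 to 2221 and 3054 to 4581 in the same order. Raw counts are not scaled to library size, and the mean total was 3.76e+07 in swim-tunnel and 4.26e+07 in unexercised libraries.

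None of the 8 called genes of these 2 lists stayed called in all 10 fits without a 3-year library. DSP and dsc2l lost the call in 5 of them, and the highest adjusted p was 0.107, for itga6b without swim-tunnel replicate 5. With the muscle covariate none of the 8 was called, at log2 fold changes of 1.38 for DSP, 1.90 for dsc2l and 1.04 for itga6b.

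**Figure D3:**
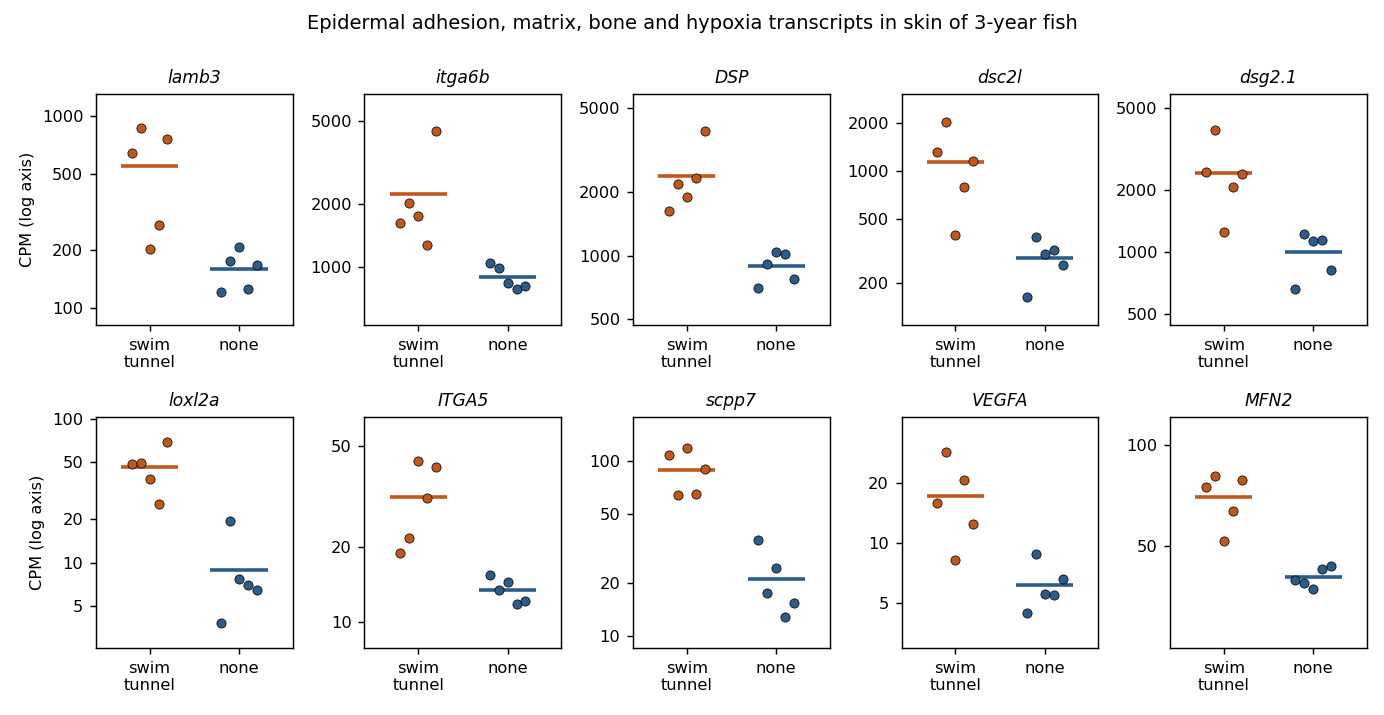
CPM (log axis, its own range per panel) of 5 epidermal adhesion genes (top) and of the matrix genes loxl2a and ITGA5, the scale gene scpp7, VEGFA and the mitochondrial fusion gene MFN2 (bottom) in 5 swim-tunnel (left) and 5 unexercised (right) libraries of 3-year fish, with group means as bars. All 10 have higher means in swim-tunnel fish, and lamb3 and VEGFA have overlapping groups.

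Most matrix genes of the dermis had log2 fold changes above 0, and a few enzymes that crosslink collagen rose. Of 61 tested 4 rose and none fell, where 0.803% of all genes rose, while 56 had a log2 fold change above 0, against 51.3% of all genes, and 28 an unadjusted p below 0.05, against 19.4%. The median was 0.48. loxl2a, a lysyl oxidase-like enzyme that crosslinks collagen, had 48.4, 49.5, 38.2, 25.6 and 68.4 CPM in swim-tunnel fish, against 3.82, 19.6, 7.77, 7.02 and 6.46 CPM in unexercised fish (log2 fold change 2.37, SE 0.47, adjusted p = 0.0251). The 5 swim-tunnel values stood clear of the unexercised ones, of which replicate 2 was highest. Its relative LOXL2 (ENSDARG00000044074) rose by 0.70 (SE 0.17, adjusted p = 0.0486) and the collagen lysyl hydroxylase PLOD2 by 1.16 (SE 0.25, adjusted p = 0.0334). TNC (ENSDARG00000021948), tenascin C, a glycoprotein of remodelling matrix, had 23.9, 7.56, 55.0, 12.7 and 32.8 CPM in swim-tunnel fish, against 8.82, 9.09, 10.7, 4.79 and 7.22 CPM in unexercised fish (log2 fold change 1.70, SE 0.39, adjusted p = 0.0381). Swim-tunnel replicates 1, 3, 4 and 5 were above all unexercised fish and replicate 2 was among them. With the muscle covariate TNC had a log2 fold change of 1.07 (adjusted p = 0.252).

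The 10 fibrillar collagen genes all lay above 0, with a median of 0.72 and none called. col1a1a, the alpha 1 chain of collagen I, had 1205, 1698, 2293, 695 and 2282 CPM in swim-tunnel fish, against 1382, 913, 904, 572 and 687 CPM in unexercised fish (log2 fold change 0.87, SE 0.31, adjusted p = 0.136). Swim-tunnel replicates 1 and 4 lay inside the unexercised range. FN1 (ENSDARG00000019815), fibronectin, had 123, 138, 415, 164 and 199.8 CPM in swim-tunnel fish, against 112, 92.9, 150.1, 92.4 and 93.9 CPM in unexercised fish (log2 fold change 0.94, adjusted p = 0.0794). ITGA5, the alpha subunit of the fibronectin receptor, was on no list and rose: it had 18.8, 21.6, 43.6, 31.1 and 41.6 CPM in swim-tunnel fish, against 15.4, 13.4, 14.4, 11.8 and 12.1 CPM in unexercised fish (log2 fold change 1.22, SE 0.21, adjusted p = 0.0136), without overlap. The heparan sulfate proteoglycan GPC6 (ENSDARG00000104219) rose by 1.46 (SE 0.26, adjusted p = 0.0168) at levels under 2 CPM. ITGA5 and GPC6 stayed called in all 10 fits without a 3-year library but not with the muscle covariate (adjusted p = 0.0526 and 0.0858) or with the 3-year libraries alone (adjusted p = 0.0629 and 0.0659), while none of the 4 called list members did (highest adjusted p = 0.108, LOXL2 without swim-tunnel replicate 5). No gene was called among 17 basement membrane genes (median 0.32, 8 at an unadjusted p below 0.05, 3 called by DESeq2 and 0 by limma voom) or among 16 matrix metalloproteinases and inhibitors (median 0.41, 7 at an unadjusted p below 0.05, 4 called by DESeq2 and 0 by limma voom).

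Of 18 osteoblast genes 2 rose, both of scale mineralisation, and none fell (median 0.48), where 0.803% of all genes rose and 0.52% fell. The 13 matrix and mineralisation genes of the list had a median of 0.53, with 11 above 0. Its 5 transcription factors had a median of -0.08, with 1 above 0. scpp7, a calcium-binding phosphoprotein secreted into bone and tooth matrix, had 107, 64.0, 118, 64.4 and 89.7 CPM in swim-tunnel fish, against 35.4, 17.6, 24.6, 12.8 and 15.4 CPM in unexercised fish (log2 fold change 2.07, SE 0.35, adjusted p = 0.0136). The lowest swim-tunnel fish was at 64.0 CPM and the highest unexercised fish at 35.4 CPM, and the call stayed in all 10 fits without a 3-year library, with adjusted p = 0.0526 with the muscle covariate. PHEX, an endopeptidase that regulates mineralisation, had 17.5, 20.1, 24.9, 23.7 and 26.8 CPM in swim-tunnel fish, against 14.4, 11.5, 12.9, 16 and 12.6 CPM in unexercised fish (log2 fold change 0.75, SE 0.18, adjusted p = 0.042), also without overlap, and its adjusted p reached 0.0926 without swim-tunnel replicate 5. Of 16 osteoclast genes 2 rose and none fell, against the same shares of all genes. ocstamp, needed for osteoclast fusion, had 1.62, 0.705, 1.66, 5.11 and 0.59 CPM in swim-tunnel fish, against 0.173, 0.374, 0.6, 0.367 and 0.347 CPM in unexercised fish (log2 fold change 2.38, SE 0.56, adjusted p = 0.0436). Replicate 4 of the swim-tunnel fish was far above the rest and replicate 5 inside the unexercised range. SPI1, a transcription factor of myeloid cells and osteoclasts, had 47.0, 20.5, 49.8, 55.8 and 27.6 CPM in swim-tunnel fish, against 18.3, 23.0, 27.3, 16.4 and 19.1 CPM in unexercised fish (log2 fold change 0.95, SE 0.23, adjusted p = 0.0499), with swim-tunnel replicate 2 inside the unexercised range and replicate 5 just above it. The summed level of the osteoclast list was 629, 655, 674, 1028 and 488 CPM in swim-tunnel fish, against 441, 584, 638, 567 and 512 CPM in unexercised fish, and that of 10 neutrophil genes was 719 CPM in swim-tunnel replicate 4 and 185 to 440.5 CPM in the other 4, against 139 to 233 CPM in unexercised fish. The defining markers ctsk and acp5 were present in every fish, and acp5 ran from 10.3 to 126 CPM in swim-tunnel fish and from 4.74 to 18.1 CPM in unexercised fish. The part of cell numbers in ocstamp and SPI1 was not tested. ocstamp stayed called in 2 and SPI1 in 1 of the 10 fits (highest adjusted p = 0.0923 and 0.0988, both without unexercised replicate 1).

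A few genes of the low-oxygen response rose, 3 of 29 with none lower, where 0.803% of all genes rose and 0.52% fell. The median was 0.28, with 19 of the 29 above 0 and 12 at an unadjusted p below 0.05. ANKRD37, a Hif target in mammals, had 0.795, 0.341, 1.55, 2.12 and 2.39 CPM in swim-tunnel fish, against 0.326, 0.224, 0.313, 0.22 and 0.365 CPM in unexercised fish (log2 fold change 2.29, SE 0.56, adjusted p = 0.0499). VEGFA (ENSDARG00000103542), the vascular growth factor, had 15.9, 28.7, 8.24, 20.8 and 12.6 CPM in swim-tunnel fish, against 4.45, 8.84, 5.56, 5.52 and 6.64 CPM in unexercised fish (log2 fold change 1.47, SE 0.34, adjusted p = 0.0384). lepb, a leptin gene that hypoxia induces in zebrafish, had 2.11, 1.82, 8.68, 8.52 and 2.73 CPM in swim-tunnel fish, against 1.82, 1.3, 0.47, 1.52 and 0.511 CPM in unexercised fish (log2 fold change 2.09, SE 0.50, adjusted p = 0.0475). VEGFA of swim-tunnel replicate 3 was inside the unexercised range, and lepb was highest in swim-tunnel replicates 3 and 4. Of the other 26 genes, 16 had log2 fold changes above 0 and 10 below, and none passed. DDIT4, a stress-induced inhibitor of mTOR, had 32.2, 19.4, 64.1, 12.4 and 59.8 CPM in swim-tunnel fish, against 29.8, 46.9, 231, 161 and 64.5 CPM in unexercised fish (log2 fold change -1.5, SE 0.61, adjusted p = 0.185). PDK1, the kinase that shuts pyruvate dehydrogenase, had 4.56, 5.47, 5.12, 4.57 and 5.17 CPM in swim-tunnel fish, against 8.73, 6.73, 5.90, 7.65 and 6.04 CPM in unexercised fish, without overlap (log2 fold change -0.49, adjusted p = 0.152). HIF1A was not called (log2 fold change 0.20, SE 0.08, adjusted p = 0.207). KDR, a Vegf receptor and the 1 called gene of 24 endothelial genes, rose by 0.76 (SE 0.17, adjusted p = 0.0348).

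A glucose and a lactate carrier rose. SLC2A1 (ENSDARG00000007412), a glucose transporter, had 54.7, 73.2, 38, 57.2 and 58.2 CPM in swim-tunnel fish, against 21.4, 36.9, 25.4, 39.0 and 32.1 CPM in unexercised fish (log2 fold change 0.86, SE 0.20, adjusted p = 0.0392). SLC16A3 (ENSDARG00000045051), a lactate exporter, had 22.6, 9.68, 21.1, 11.5 and 30.7 CPM in swim-tunnel fish, against 4.20, 6.30, 5.01, 12.9 and 8.90 CPM in unexercised fish (log2 fold change 1.36, SE 0.33, adjusted p = 0.0499). These were the 2 called genes of 32 on the glycolysis list, where 1.32% of all genes were called, both with overlapping groups. SLC2A12, a glucose transporter on no list, fell: it had 6.25, 4.28, 7.84, 4.36 and 5.21 CPM in swim-tunnel fish, against 22.2, 11.5, 15.9, 13.08 and 12.1 CPM in unexercised fish (log2 fold change -1.42, SE 0.24, adjusted p = 0.0136), well apart. It stayed called in all 10 fits without a 3-year library and with the muscle covariate. LDHB, lactate dehydrogenase B, had 190.1, 338, 201, 209 and 344 CPM in swim-tunnel fish, against 394, 385, 558, 445 and 566 CPM in unexercised fish without overlap and did not pass (log2 fold change -0.87, adjusted p = 0.0731). None of the 5 called hypoxia and glycolysis genes stayed called in all 10 fits (highest adjusted p = 0.114, SLC16A3 without swim-tunnel replicate 5). With the muscle covariate none of the 5 was called, at log2 fold changes of 1.5 for VEGFA, 2.19 for lepb, 2.12 for ANKRD37, 0.84 for SLC2A1 and 0.73 for SLC16A3, and the list medians were 0.05 for hypoxia and -0.04 for glycolysis.

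Genes of the respiratory chain had log2 fold changes slightly above 0 without calls. The 13 mitochondrially encoded genes all had a log2 fold change above 0 (median 0.17, and 0.10 without swim-tunnel replicate 5), none of them called and 0 at an unadjusted p below 0.05 by edgeR, with 0 called by DESeq2 or limma voom. Of 77 nuclear genes of oxidative phosphorylation 74 lay above 0 (median 0.24). By edgeR none of the 77 was called, with 13 at an unadjusted p below 0.05 (19.4% of all genes) and 1 called by DESeq2 and 0 by limma voom. With the muscle covariate both medians were 0.00. The mitochondrially encoded share of counts was 7.87 ± 1.06% in swim-tunnel fish and 7.31 ± 0.993% in unexercised fish (SD, n = 5 each, two-sided exact permutation p = 0.429, the smallest possible being 0.00794). Single genes of mitochondrial upkeep moved both ways, with MFN2 and GFM2 higher. Of those that were lower, msto1 and fam210b were chosen after their values were seen. In raw counts msto1 had 237 to 456 in swim-tunnel and 414 to 801 in unexercised libraries. The counts of fam210b were 311 to 489 and 595 to 1389 in the same order. Neither range is scaled to library size, and the unexercised libraries held more counts on average. MFN2, which fuses mitochondria, had 74.7, 80.5, 51.5, 63.6 and 78.2 CPM in swim-tunnel fish, against 39.7, 38.7, 37.2, 42.6 and 43.6 CPM in unexercised fish (log2 fold change 0.79, SE 0.14, adjusted p = 0.0155), without overlap. GFM2, a mitochondrial translation factor that recycles ribosomes, had 24.6, 8.93, 25.6, 23.2 and 25 CPM in swim-tunnel fish, against 8.86, 8.64, 10.6, 8.97 and 9.63 CPM in unexercised fish (log2 fold change 1.2, SE 0.20, adjusted p = 0.0136). Swim-tunnel replicate 2 sat at the unexercised level and the other 4 were more than 2-fold above it. Both stayed called in all 10 fits without a 3-year library. Neither was called with the muscle covariate (adjusted p = 0.0568 in both, log2 fold changes 0.72 for MFN2 and 1.09 for GFM2), nor was GFM2 with the 3-year libraries alone (adjusted p = 0.0799).

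Regulators of mitochondrial genes, chosen after their values were seen, moved in different directions. pprc1, a coactivator of the PGC-1 family, had 11.9, 23.8, 17.3, 31.8 and 17.8 CPM in swim-tunnel fish, against 6.18, 8.20, 8.22, 7.02 and 6.64 CPM in unexercised fish (log2 fold change 1.5, SE 0.29, adjusted p = 0.0238). NRF1, nuclear respiratory factor 1, had 15, 17.6, 19.1, 19.5 and 16.9 CPM in swim-tunnel fish, against 24.5, 24.5, 27.4, 23.4 and 29.6 CPM in unexercised fish (log2 fold change -0.55, SE 0.11, adjusted p = 0.0288). Neither overlapped between groups, pprc1 being higher and NRF1 lower in swim-tunnel fish. The nuclear receptor ESRRA rose by 0.60 (SE 0.15, adjusted p = 0.0499), the muscle regulator perm1a by 1.68 (SE 0.37), the inner membrane protease YME1L1 (ENSDARG00000075192) by 0.78 (SE 0.16), the import factor CHCHD4 by 0.84 (SE 0.20) and COQ10B, a coenzyme Q binding protein, by 0.73 (SE 0.17). perm1a was highest in swim-tunnel replicates 1, 3 and 5 and had a log2 fold change of 0.81 with the muscle covariate (adjusted p = 0.141). The polyamine enzyme ODC1 and the transcription factor MYCN also rose, by 1.69 (SE 0.37) and 1.13 (SE 0.24). Apart from that of perm1a with the muscle covariate, results of the alternatives are not given singly for the genes of this paragraph. Of all 88 named genes called, 26 stayed called in all 10 fits without a 3-year library and 18 with the muscle covariate.

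Skeletal muscle transcripts were most abundant in 3 of the 5 swim-tunnel libraries, and 1 fast muscle gene was called. All 35 fast muscle genes tested had a log2 fold change above 0 (median 1.15), and 18 had an unadjusted p below 0.05. myhz2, a fast myosin heavy chain, had 17.2, 1.73, 14.4, 3.64 and 12.4 CPM in swim-tunnel fish, against 0.94, 2.34, 3.13, 0.929 and 1.55 CPM in unexercised fish (log2 fold change 2.48, SE 0.55, adjusted p = 0.0372). actc1b, an actin of striated muscle, had 5156, 1215, 3756, 711 and 3829 CPM in swim-tunnel fish, against 469, 1579, 668, 1232 and 1346 CPM in unexercised fish (log2 fold change 1.47, SE 0.44, adjusted p = 0.0862). ckma, muscle creatine kinase, had 3547, 952, 2241, 526 and 2008 CPM in swim-tunnel fish, against 618, 1263, 538, 1731 and 1594 CPM in unexercised fish (log2 fold change 0.69, SE 0.43, adjusted p = 0.402). In each of them swim-tunnel replicates 1, 3 and 5 were above all unexercised fish, and replicates 2 and 4 were within or below the unexercised range, except that replicate 4 of myhz2 was just above it. Among 12 slow muscle genes tpm3, a tropomyosin, was the 1 that rose (log2 fold change 0.52, SE 0.13, adjusted p = 0.0499). Of all genes 0.803% were called higher. Whether these libraries hold more muscle tissue or muscle genes were more active cannot be told apart. The defining marker pvalb2, a parvalbumin, was at 15.6 to 319 CPM in swim-tunnel fish and 12.1 to 135 CPM in unexercised fish. With the muscle covariate, which is built from this list, its median was -0.08, and over all genes 27 were called, 25 of them among the 275.

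**Figure D4:**
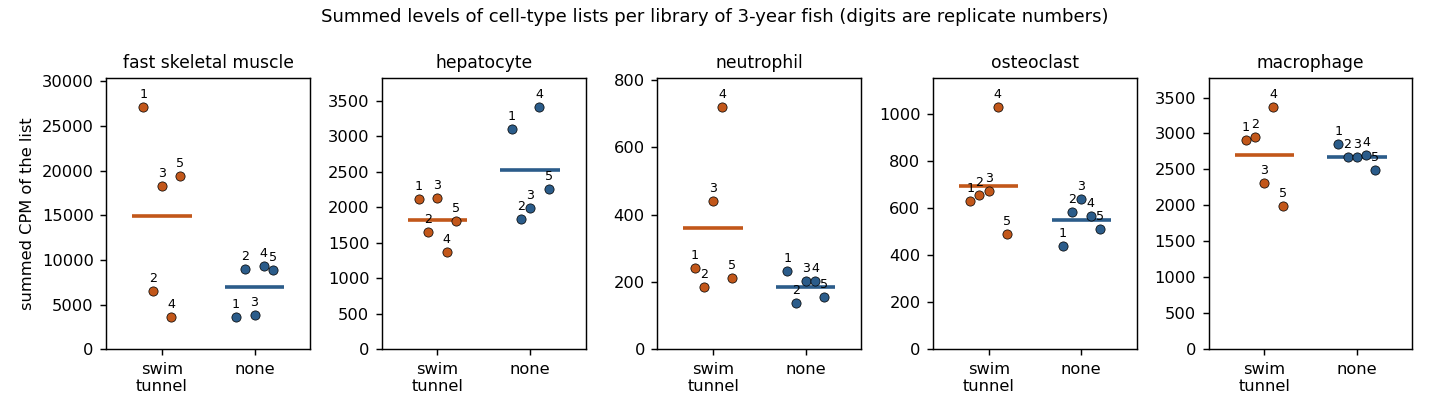
Summed CPM of 5 cell-type lists (vertical axis, starting at 0) in each swim-tunnel (left) and unexercised (right) library of 3-year fish, with replicate numbers and group means as bars. Swim-tunnel replicates 1, 3 and 5 hold 18253 to 27059.5 CPM of fast muscle genes, swim-tunnel replicate 4 the most neutrophil and osteoclast transcripts, and unexercised replicates 1 and 4 the most hepatocyte transcripts.

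Liver-type genes had mostly negative log2 fold changes, none of them called, and a few genes of bile acid, ketone and fatty acid metabolism fell. Of 36 hepatocyte genes 35 had a log2 fold change below 0 (median -0.73), none was called, and none had an unadjusted p below 0.05, nor did DESeq2 or limma voom call any. Their summed level was 2109, 1653, 2131, 1370.3 and 1806 CPM in swim-tunnel fish, against 3099, 1833, 1987, 3402 and 2261 CPM in unexercised fish, and the median was 0.09 without unexercised replicate 4 and -1.22 without swim-tunnel replicate 3. Their marker fabp10a was at 12.8 to 69.0 CPM in swim-tunnel fish and 13.5 to 105 CPM in unexercised fish. The complement and acute phase list followed it, with a median of -0.51, of 0.36 without unexercised replicate 4 and of -0.87 without swim-tunnel replicate 3. By edgeR 0 of its 31 genes were called, with 2 at an unadjusted p below 0.05, 1 called with DESeq2 and 0 with limma voom. CYP7A1, which starts bile acid synthesis, had 107, 179, 268, 57.7 and 66.9 CPM in swim-tunnel fish, against 832, 249, 586, 730.2 and 440.5 CPM in unexercised fish. Unexercised replicate 2 overlapped the swim-tunnel range and the log2 fold change of -2.06 (SE 0.56) did not pass (adjusted p = 0.0696). cyp27a1.1, of the sterol 27-hydroxylase family, fell: it had 8.88, 7.69, 9.86, 11.9 and 8.29 CPM in swim-tunnel fish, against 28.2, 23.4, 28.0, 25 and 14.3 CPM in unexercised fish (log2 fold change -1.35, SE 0.20, adjusted p = 0.0108), without overlap. It stayed called in all 10 fits without a 3-year library and with either covariate. BDH1, which interconverts the ketone bodies, fell by 0.60 (SE 0.10, adjusted p = 0.0122) and also stayed called in all 10, with adjusted p = 0.0757 with the 3-year libraries alone. CPT1A, the carnitine transferase that admits fatty acids to mitochondria and the 1 called gene of 31 in fatty acid oxidation, fell by 0.52 (SE 0.13, adjusted p = 0.0496). The share called over all genes was 1.32%. CYP7A1 was the gene of lowest p among 28 of sterol and fatty acid synthesis, where edgeR called none (median -0.46, 2 at an unadjusted p below 0.05, 2 by DESeq2 and 0 by limma voom). That median was -0.17 without unexercised replicate 1 and -0.96 without swim-tunnel replicate 5.

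Immune lists held no called gene. By edgeR, 0 of 24 macrophage, 0 of 10 neutrophil, 0 of 17 T and NK cell, 0 of 11 B cell, 0 of 40 inflammatory and 0 of 28 interferon genes passed, with 6, 5, 4, 3, 6 and 1 at an unadjusted p below 0.05. DESeq2 called 0, 2, 1, 1, 3 and 0 of them in the same order, and limma voom 0 of all. Median log2 fold changes were 0.52 for macrophage, 0.83 for neutrophil and 0.51 for B cell genes. Without swim-tunnel replicate 4 the macrophage median was 0.28 and the neutrophil median 0.55, and without replicate 3 the neutrophil median was 0.42. The medians of T and NK cell (-0.04), inflammatory (0.02) and interferon genes (-0.09) were -0.31, -0.10 and -0.45 without swim-tunnel replicate 4, and reached 0.11 without swim-tunnel replicate 3, 0.25 without unexercised replicate 1 and 0.17 without swim-tunnel replicate 5. nkl.2, an NK-lysin gene, had 3.11, 0.511, 0.709, 171 and 0.0492 CPM in swim-tunnel fish, against 0.844, 0.374, 0.287, 0.318 and 0.857 CPM in unexercised fish, nearly all of it in swim-tunnel replicate 4, and it did not pass (adjusted p = 0.052). The chemokine gene ccl19a.1 had 13.8, 13.0, 23.9, 49.2 and 10.9 CPM in swim-tunnel fish, against 6.87, 8.32, 3.10, 9.09 and 1.57 CPM in unexercised fish and did not pass either (log2 fold change 1.94, adjusted p = 0.0693).

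Single genes of growth, stress and pigment pathways were called, where 0.803% of all genes rose and 0.52% fell. FOXO1 (ENSDARG00000061549), a transcription factor that insulin restrains, had 2.59, 5.84, 2.37, 5.71 and 5.46 CPM in swim-tunnel fish, against 0.652, 1.69, 1.46, 0.685 and 1.92 CPM in unexercised fish (log2 fold change 1.78, SE 0.42, adjusted p = 0.0432), the 1 called gene of 51 in insulin, mTOR and FoxO signalling. bbc3, a proapoptotic target of p53, had 6.12, 3.62, 6.71, 5.71 and 5.29 CPM in swim-tunnel fish, against 12.8, 9.54, 21.3, 23.7 and 11.5 CPM in unexercised fish (log2 fold change -1.52, SE 0.34, adjusted p = 0.0352), the 1 called gene of 36. PER1 was the 1 called gene of 20 on the list of the glucocorticoid receptor and its targets. The median of that list, -0.33, was -0.05 without unexercised replicate 4 and -0.08 with the hepatocyte covariate. The receptor NR3C1 was not called (log2 fold change -0.57, SE 0.22, adjusted p = 0.17). PTS, an enzyme of pteridine synthesis, fell by 0.62 (SE 0.15, adjusted p = 0.0499), the 1 called gene of 13 xanthophore genes. The histone H3 methyltransferase DOT1L rose by 1.15 (SE 0.26, adjusted p = 0.039) among 44 histone lysine methylation genes. Of these 44, 13 had a log2 fold change above 0 (median -0.08). atp1a1a.5, a sodium pump subunit and the 1 called gene of 26 ionocyte genes, rose by 2.02 (SE 0.39, adjusted p = 0.0237) at levels of 0.171 to 1.75 CPM. PMP22, a myelin protein, rose by 0.98 (SE 0.19, adjusted p = 0.0238) and was the 1 called gene of 21 nerve and Schwann cell genes. Most of that list went the other way, with 7 of the 21 above 0 (median -0.10). Apart from PER1, none of the called genes of this paragraph stayed called in all 10 fits without a 3-year library. The highest adjusted p among them was 0.102, for PTS without unexercised replicate 3. With the 3-year libraries alone or with the muscle covariate, PER1 was again the only one called.

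Ribosomal protein genes had log2 fold changes slightly below 0: 77 of 79 had a log2 fold change below 0, at a median of -0.17, and 1, RPL12, was called (log2 fold change -0.30, SE 0.07, adjusted p = 0.0499). With RLE or upper-quartile scaling RPL12 was not called. Of all genes 0.52% were called lower. Among 44 cell cycle, 37 proteasome, 28 antioxidant, 12 melanophore, 15 iridophore, 12 mucous cell, 9 erythrocyte and 13 smooth muscle and pericyte genes, with 2, 1, 10, 2, 2, 1, 0 and 5 of them at an unadjusted p below 0.05, edgeR called none. Of these 8 lists DESeq2 called 5 antioxidant, 2 smooth muscle, 1 cell cycle, 1 melanophore and 1 iridophore gene, and limma voom called 0. The smooth muscle median was 0.45, and the cell cycle median of 0.14 was -0.14 without swim-tunnel replicate 4 and 0.38 without unexercised replicate 3.

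Further genes fell or rose by large amounts, or stayed called in all 10 fits without a 3-year library. TCIM (ENSDARG00000076858) had 13.4, 39.6, 35.9, 17.0 and 17.3 CPM in swim-tunnel fish, against 114, 126, 331, 325 and 48.0 CPM in unexercised fish (log2 fold change -2.94, SE 0.63, adjusted p = 0.0326). hap1 had 19.6, 23.9, 18.7, 13.9 and 15.7 CPM in swim-tunnel fish, against 69.2, 52.3, 47.3, 51.1 and 57.1 CPM in unexercised fish (log2 fold change -1.59, SE 0.30, adjusted p = 0.0235), without overlap. TMEM41B, a membrane protein of the endoplasmic reticulum that autophagy needs, had 4.35, 5.16, 4.45, 5.22 and 5.66 CPM in swim-tunnel fish, against 1.76, 2.07, 1.46, 1.64 and 1.99 CPM in unexercised fish (log2 fold change 1.48, SE 0.22, adjusted p = 0.0118). In TMEM41B each swim-tunnel fish was more than 2-fold above the unexercised mean. Higher in all 10 fits were also SLAIN2, a microtubule growth factor (log2 fold change 0.77, SE 0.12), KLHL32 (log2 fold change 1.26, SE 0.21) and KCTD15 (ENSDARG00000045893, log2 fold change 1.56, SE 0.27). KCTD15 of swim-tunnel replicate 3 and KLHL32 of replicate 5 lay inside the unexercised range. Lower in all 10 were the homeobox gene HOXD11 (log2 fold change -1.25, SE 0.21), FRRS1L, a protein of glutamate receptor complexes in mammals (log2 fold change -2.01, SE 0.32), the sialyltransferase st3gal1l (log2 fold change -1.43, SE 0.26), TMTC4 (log2 fold change -1.35, SE 0.24), LMF2 (ENSDARG00000078094, log2 fold change -1.16, SE 0.21), trim108 (log2 fold change -0.83, SE 0.14) and ankrd10b (log2 fold change -0.64, SE 0.12). Of these 11 genes SLAIN2, KLHL32, TMEM41B and FRRS1L stayed called with the muscle covariate, the others having adjusted p = 0.0526 to 0.0847, and with the 3-year libraries alone SLAIN2, TMEM41B, FRRS1L, HOXD11 and trim108 did, the others having adjusted p = 0.0571 to 0.0858. The urea transporter SLC14A2 had 14.8, 2.24, 2.77, 3.51 and 4.21 CPM in swim-tunnel fish, against 1.4, 1.57, 1.17, 1.61 and 1.53 CPM in unexercised fish (log2 fold change 1.91, SE 0.38, adjusted p = 0.0249), with replicate 1 far above the other swim-tunnel fish. AGO3, an Argonaute protein, rose by 1.95 (SE 0.38) and CPEB2, which binds the tails of messenger RNAs, by 1.86 (SE 0.39), while SCUBE1 fell by 1.66 (SE 0.33) and pogza by 1.64 (SE 0.33). For TCIM, hap1, SLC14A2, AGO3, CPEB2, SCUBE1 and pogza, results of the alternatives are not given singly here.

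Some of the largest fold changes came from genes abundant in some fish and near 0 in others. si:dkey-266f7.5 had 0.0346, 0.0973, 0.0443, 0.129 and 0.0738 CPM in swim-tunnel fish, against 181, 0.199, 0.157, 115 and 0.0365 CPM in unexercised fish. It was abundant in 2 unexercised fish and at most 0.199 CPM in the other 8 fish. si:ch211-114l13.11 had 17.6, 0.0243, 13.6, 12 and 9.79 CPM in swim-tunnel fish, against 0.0384, 0.0249, 0.0783, 0.147 and 0.0182 CPM in unexercised fish, present in 4 of 5 swim-tunnel fish and in no unexercised fish above 0.147 CPM. otoa had 0.795, 1.22, 0.775, 5.50 and 1.25 CPM in swim-tunnel fish, against 36.8, 41.4, 18.8, 5.84 and 1.08 CPM in unexercised fish, with unexercised replicates 4 and 5 within or near the swim-tunnel range. nuggc.3 had 12.5, 18.4, 8.97, 32.6 and 4.40 CPM in swim-tunnel fish, against 201, 40.1, 51.4, 231 and 18 CPM in unexercised fish, where unexercised replicates 1 and 4 were highest. All 4 were called (adjusted p = 0.0238, 0.0136, 0.0352 and 0.028). With limma voom none of them was called. The fitted fold change of such a gene depends on the prior count and is not given.

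The 3-year change was set beside the same comparison at 1 year, which shares no library with it. Both came from 1 fit with a spread per gene estimated over all 20 libraries. The calls at the 2 ages are therefore not independent. Of the 275 genes called at 3 years, 147 (53.5%) were also called at 1 year, where 15.5% of all genes were called, and all 147 had the same direction. They were 4.56% of the 3227 genes called at 1 year. Among all 275, 253 had the same sign at both ages. The share of all tested genes with the same sign was not computed. Without unexercised 1-year replicate 1, 93 of the 195 genes called at 3 years (47.7%) were among 2109 of 21082 genes called at 1 year, all 93 in the same direction. NR1D1 had a log2 fold change of -2.40 at 3 years and -2.36 at 1 year (SE 0.37), DSP (ENSDARG00000022309) of 1.43 and 2.09 (SE 0.30), loxl2a of 2.37 and 2.27 (SE 0.47) and MFN2 of 0.79 and 1.1 (SE 0.14).

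The difference of the 2 changes was called in 1 of 20788 genes (0.00481%) and in none of the 275. By edgeR's quasi-likelihood test, 13.4% of all genes and 81 of the 275 had an unadjusted p of the difference below 0.05. The 1 gene whose difference was called, ENSDARG00000104886, has no symbol. It had 1.87, 2.36, 3.12, 3.25 and 2.61 CPM in swim-tunnel 3-year fish, against 1.71, 1.64, 1.8, 1.59 and 1.88 CPM in unexercised 3-year fish, and 1.73, 1.96, 1.71, 1.09 and 1.71 CPM in swim-tunnel 1-year fish, against 4.06, 4.66, 3.06, 4.02 and 2.89 CPM in unexercised 1-year fish (difference 1.8, SE 0.27, adjusted p = 0.0383). Without unexercised 1-year replicate 1 its difference was 1.77 and did not pass (adjusted p = 0.124). Its change at 3 years did not pass (0.62, adjusted p = 0.0919). Called genes with a smaller or opposite log2 fold change at 1 year were cry-dash (-0.92 at 3 years and 0.18 at 1 year), scpp7 (2.07 and 0.63), GFM2 (1.2 and -0.25), lepb (2.09 and -0.70) and cyp27a1.1 (-1.35 and -0.32), and none of these differences passed (lowest adjusted p = 0.101, for GFM2). DESeq2 called 498 differences and limma voom 2.

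**Figure D5:**
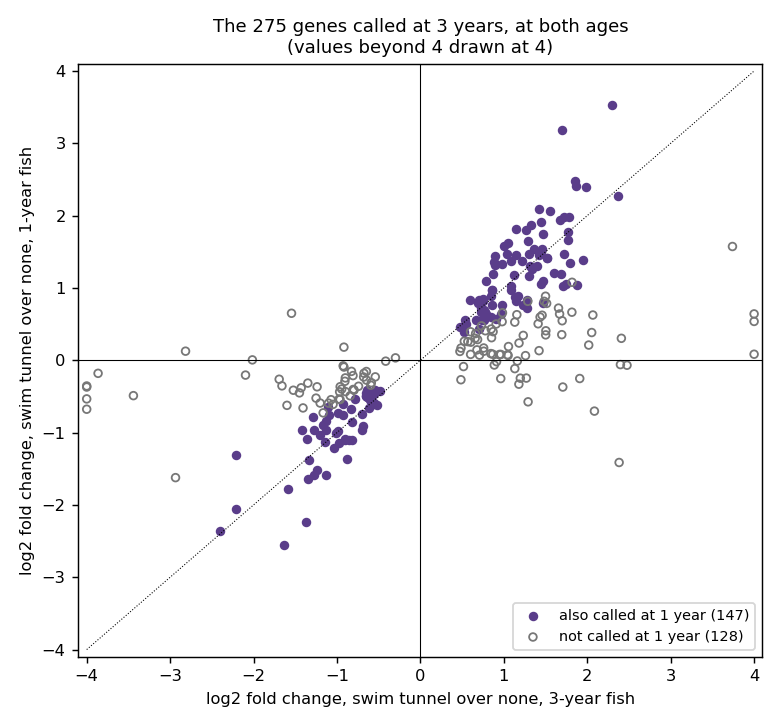
Log2 fold changes of swim-tunnel over unexercised fish at 3 years (horizontal) and 1 year (vertical) for the 275 genes called at 3 years, with filled points for the 147 also called at 1 year. All 147 lie in the lower left or upper right, and the dotted line marks equal change at both ages.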

How the data were processed

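RNA-seq libraries of skin were sequenced from 20 samples in 4 groups of 5 (swim-tunnel or no perturbation, at 3 years or 1 year). Nothing in the labels says that the libraries come from separate fish, so p-values measure the spread between these libraries, which may be technical in part. The authors deposited raw read counts per gene, whose making involved featureCounts 1.4.6-p4, STAR 2.4.1d, bcl2fastq 1.8.4 and the build GRCz10, per the submitters' processing notes. The sources used here do not give the annotation or counting options. The kit in the labels' protocols does not mark strand, so overlapping and antisense genes cannot be told apart, and counts of near-identical copies are uncertain. RPKM values that the authors deposited were not used.

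Symbols were matched for 26269 of 32105 gene IDs, and an ID is printed where a symbol names several genes. Counts were fitted with edgeR 4.0.16 (R 4.3.3): TMM scaling, edgeR's default expression filter, robust quasi-likelihood test, 4 group means over 20 libraries with 16 residual degrees of freedom, Benjamini-Hochberg adjustment over 20788 genes. SE is the size of the log2 fold change over the root of F. Library measures were compared by a two-sided exact permutation test. Precision follows the 29280697 to 50756160 counts per library and a biological coefficient of variation of 34.7%. On simulated counts of 20612 genes the edgeR test of exercise at 3 years found 60% of 2-fold and 87% of 4-fold changes and called 3 unchanged genes, and that of the difference between ages found 21% and 80%. Each gene was drawn independently around a mean common to all libraries, apart from the changed genes, which were not taken from the lowest levels. The simulation held no shared shifts of muscle, liver or immune content, so these rates may not hold for the real libraries. No pair of libraries of the same group matched within sampling noise (chi-square per degree of freedom at least 47.8). Pairs across groups were not checked.

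The comparison, its genes and 44 lists (1290 members) were chosen with earlier results of these data known. Genes named are the 12 largest called changes per direction at a mean of at least 5 CPM, called genes that stayed called without each 3-year library, called list members or else the member of lowest p, members of the clock, hypoxia, matrix, basal keratinocyte and muscle lists that describe a list, and members with non-overlapping groups; others are said to be chosen after their values were seen. Some genes that meet this rule are not reported here. Alternatives were RLE and upper-quartile scaling, no or a stricter filter, DESeq2 1.42.0, limma 3.58.1 voom with quality weights, the 3-year libraries alone, a muscle or hepatocyte covariate (the mean log2 CPM of the list), and each library left out.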

Additional observations from a re-analysis of the deposited data

Results flagged for a closer look

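In 13 of 242 groups of 5 values 1 library stood apart from the other 4 by Dixon's ratio (critical value 0.71), where chance gives about 1 in 20 groups. In swim-tunnel fish, nkl.2 was at 171 CPM in replicate 4, the next value being 3.11 CPM, ocstamp at 5.11 CPM in replicate 4 (next 1.66 CPM) and otoa at 5.50 CPM in replicate 4 (next 1.25 CPM). PER2 was at 132 CPM in swim-tunnel replicate 2 (next 97.3 CPM), itga6b at 4487 CPM in replicate 5 (next 2019.7 CPM), FN1 (ENSDARG00000019815) at 415 CPM in replicate 3 (next 199.8 CPM), pogza at 3.85 CPM in replicate 3 (next 1.94 CPM) and SLC14A2 at 14.8 CPM in replicate 1 (next 4.21 CPM). GFM2 was lowest in swim-tunnel replicate 2, at 8.93 CPM, the next value being 23.2 CPM. In unexercised fish, cry3b was at 88.0 CPM in replicate 5 (next 65.2 CPM), loxl2a at 19.6 CPM in replicate 2 (next 7.77 CPM), KCTD15 (ENSDARG00000045893) at 9.77 CPM in replicate 2 (next 6.81 CPM) and ODC1 at 29.7 CPM in replicate 3 (next 15.5 CPM). Swim-tunnel replicate 4, with 3 of these values, also held the most neutrophil transcripts; the part of that in nkl.2, ocstamp and otoa was not tested.

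The change with swimming differed between ages in ENSDARG00000104886, by 1.8 on the log2 scale (3 years minus 1 year, edgeR's quasi-likelihood test, adjusted p = 0.0383, and 0.124 without unexercised 1-year replicate 1).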

How the results depend on the processing

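The number of genes called at 3 years, 275, was 286 with RLE scaling and 295 with upper-quartile scaling, 186 with no filter and 311 with a stricter one, 1298 with DESeq2, 33 with limma voom, 50 with the 3-year libraries alone, 51 with the hepatocyte covariate and 27 with the muscle one. Leaving out 1 library of the 20 gave 42 to 390 calls. With limma voom 45.5% of the calls were higher, with the 3-year libraries alone 42%, with the hepatocyte covariate 49.0% and without an unexercised 3-year library 36.8% to 53.6%, against 60.7%. The difference between ages, called in 1 gene, was called in 2 with RLE scaling, upper-quartile scaling, a stricter filter, limma voom or the muscle covariate, 0 with no filter or the hepatocyte covariate, 498 with DESeq2 and 0 to 39 without 1 library. Swim-tunnel minus unexercised fish, leaving out 1 library gave differences of -6560960 to -2986780 in total counts, -170 to -19.1 in genes with a count, 0.258 to 0.985 points in the mitochondrially encoded share and -0.674 to 0.346 points in the share of the 100 most abundant genes, which changed sign to 0.346 without swim-tunnel replicate 4 and 0.0316 without unexercised replicate 4. MYL1 (ENSDARG00000017441) and ckma, not called, changed sign with the muscle covariate, to -0.11 and -0.46. The cause of these shifts was not tested.

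The counts of named genes leave out msto1, fam210b, lad1 and PADI1. Of 107 named genes 88 were called, and of these 87 were called with RLE scaling, 87 with upper-quartile scaling, 67 with no filter, 86 with a stricter one, 88 with DESeq2, 23 with limma voom, 23 with the 3-year libraries alone, 32 with the hepatocyte covariate, 18 with the muscle one and 26 in all 10 fits without a 3-year library. Of 44 list medians 18 changed sign in some alternative, and the 4 over 0.3 in size were those of fast muscle (-0.08) and slow muscle (-0.17) with the muscle covariate and of hepatocyte (0.09) and complement genes (0.36) without unexercised replicate 4. No paired analysis was possible because the labels do not pair swim-tunnel with unexercised libraries. The labels carry no replicate numbers, and those used here follow the order of the samples within each group.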

Other observations

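Genes not described above included cipca, which inhibits Clock in mammals. It had 2.73, 1.95, 2.46, 0.878 and 5.34 CPM in swim-tunnel fish, against 4.58, 7.27, 5.95, 10.3 and 5.14 CPM in unexercised fish and did not pass (log2 fold change -1.31, SE 0.35, adjusted p = 0.0686 by edgeR's quasi-likelihood test). The protein phosphatase gene PPM1L (ENSDARG00000089641) had 0.829, 1.68, 1.15, 2.12 and 2.66 CPM in swim-tunnel fish, against 3.80, 8.10, 5.40, 6.16 and 2.24 CPM in unexercised fish and fell (log2 fold change -1.60, SE 0.35, adjusted p = 0.0348). ttbk1b, a tau tubulin kinase gene, had 9.05, 0.997, 12, 4.47 and 21.5 CPM in swim-tunnel fish, against 1.69, 1.2, 1.28, 1.81 and 3.05 CPM in unexercised fish and rose (log2 fold change 2.41, SE 0.57, adjusted p = 0.0443). Its log2 fold change with the muscle covariate was 1.26 (adjusted p = 0.245). COL1A2, the alpha 2 chain of collagen I, had 1204, 2428, 3115, 953 and 2326 CPM in swim-tunnel fish, against 1915, 915, 1240.5, 812 and 749 CPM in unexercised fish and did not pass (log2 fold change 0.83, SE 0.32, adjusted p = 0.17). PPM1L stayed called in 4 and ttbk1b in 2 of the 10 fits without a 3-year library.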
